A study of Astatotilapia calliptera with 66 samples.

Results

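The hypoxia-inducible factors and the proteins that sense oxygen for them were examined in the livers of 13 wild Astatotilapia calliptera, a cichlid fish that lives in the rivers around the crater lake Masoko and, inside the lake, as a shallow-water littoral and a deep-water benthic ecomorph. Members were chosen by symbol: every gene whose symbol begins with hif1a, hif3a, epas1, egln or vhl, together with arnt and arnt2. The rule found 5 genes (hif1a, epas1, egln1, hif1an and vhl) among the 29676 genes of the liver expression table, carried by 6 of its 51012 transcripts. No entry of the table bore the symbol hif3a, egln2, egln3, arnt or arnt2, and 66.4% of its genes carried only a LOC identifier, so further family members may stand in it without a name. All 5 genes lay well above the minimum used for testing, a mean of 0.1 TPM, a share of the transcripts of a library corrected for transcript length.

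The 13 livers came from 4 riverine fish, 4 littoral fish and 5 benthic fish, each a separate wild-caught adult male in breeding colour, with no treatment. Riverine fish came from rivers close to the lake, littoral fish from its shallow and well-oxygenated water, and benthic fish from its deep, poorly oxygenated water. No oxygen reading, for single fish or for the rivers, was used here. Sequencing was split over 2 runs, called A and B here. All riverine fish and littoral fish 1 were sequenced in run A, and all benthic fish and littoral fish 2, 3 and 4 in run B, so that run and population cannot be told apart between riverine and benthic fish.

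Animal cells respond to falling oxygen mainly through the hypoxia-inducible factors (HIFs), each a pair of an unstable alpha subunit and a stable beta subunit. With oxygen present, prolyl hydroxylases mark the alpha subunit, the VHL protein recognises the mark and the subunit is destroyed, while a further hydroxylase on an asparagine weakens what is left as an activator. When oxygen falls these enzymes slow, the alpha subunits build up and genes for glycolysis, blood vessel growth, red cell production and mitochondrial turnover are switched on. This control acts mostly on the protein, whereas transcript levels were measured here. In the liver of mammals the factor built on epas1 (HIF-2 alpha) is known for its control of erythropoietin and of lipid and iron handling.

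Of the alpha subunits found by symbol, epas1 was the more abundant. Its transcript stood at 23.0, 21.3, 36.4 and 26.6 TPM in riverine fish 1 to 4, at 7.29, 18.3, 37.1 and 25.7 TPM in littoral fish 1 to 4, and at 19.2, 14.1, 10.8, 14.7 and 17.3 TPM in benthic fish 1 to 5. Every benthic fish lay below every riverine fish, while the littoral fish spanned both and held the lowest and the highest level of the 13. The population means were 26.8 ± 6.78 TPM (SD, n = 4), 22.1 ± 12.5 TPM (n = 4) and 15.2 ± 3.20 TPM (n = 5).

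The other alpha subunit, hif1a, whose protein drives much of the glycolytic response, showed no such order. It was measured at 10.5, 9.98, 14.4 and 9.17 TPM in the riverine fish, at 7.09, 13.6, 17.3 and 11.8 TPM in the littoral fish, and at 11.6, 14.4, 9.38, 8.97 and 16.5 TPM in the benthic fish. The 3 populations overlapped, with means of 11.0 ± 2.33, 12.4 ± 4.22 and 12.2 ± 3.25 TPM in riverine, littoral and benthic fish (SD).

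Among the oxygen sensors the prolyl hydroxylase egln1, known as PHD2 in mammals, where it is the main enzyme marking HIF alpha for destruction, was highest in riverine fish. Its levels were 4.65, 6.73, 5.97 and 6.48 TPM in riverine fish, 1.88, 4.22, 5.47 and 3.74 TPM in littoral fish, and 4.10, 3.19, 3.84, 4.51 and 3.84 TPM in benthic fish. The lowest riverine fish stood just above the highest benthic fish, and among the littoral fish only number 3 reached the riverine range. Means were 5.96 ± 0.928, 3.83 ± 1.49 and 3.89 ± 0.480 TPM.

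The asparagine hydroxylase hif1an (factor inhibiting HIF) ranged more widely within each population. It stood at 5.62, 3.43, 5.67 and 8.88 TPM in the riverine fish, at 1.71, 6.04, 5.44 and 5.36 TPM in the littoral fish, and at 4.47, 5.46, 2.12, 2.47 and 4.67 TPM in the benthic fish. All 3 populations overlapped. The means of riverine, littoral and benthic fish, 5.90 ± 2.24, 4.64 ± 1.98 and 3.84 ± 1.46 TPM, differed by less than the riverine SD from 1 to the next.

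The gene for the substrate-recognition subunit of the ubiquitin ligase, vhl, was lowest in benthic fish. Riverine fish had 13.9, 12.9, 10.8 and 18.6 TPM, littoral fish 6.35, 20.5, 11.4 and 12.2 TPM, and benthic fish 8.13, 6.71, 10.5, 5.37 and 8.64 TPM of vhl. Riverine and benthic fish did not overlap, by the narrow gap between 10.8 and 10.5 TPM, and 3 of the 4 littoral fish lay above all benthic fish. The means were 14.1 ± 3.29, 12.6 ± 5.87 and 7.87 ± 1.95 TPM.

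**Figure D1:**
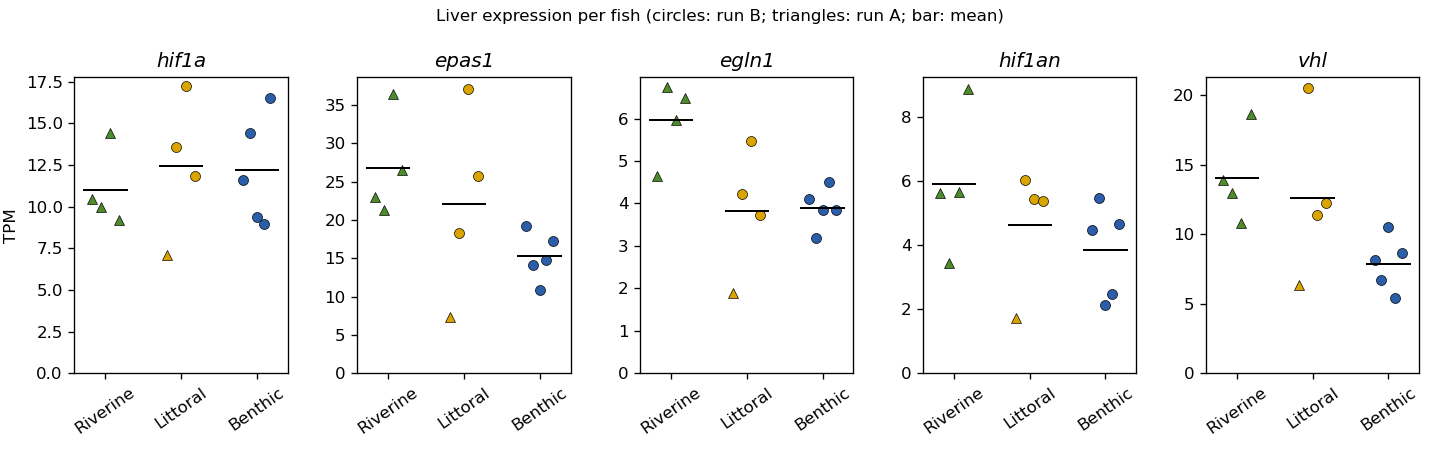
TPM (vertical axis of each panel, from 0) of the 5 genes in each of the 13 livers, by population, with the mean as a bar. Circles are fish of run B and triangles fish of run A. Benthic fish lie below all riverine fish for epas1, egln1 and vhl, and the low littoral triangle is littoral fish 1.

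Littoral fish 1 was the only lake fish sequenced together with the riverine fish. In the deposited TPM it had the lowest level of all 13 fish for epas1, hif1a, egln1 and hif1an. For vhl only benthic fish 4 was lower. After scaling by the median of ratios, which sets each library by its typical gene, littoral fish 1 had 2.82 TPM of egln1 and 10.9 TPM of epas1. Both lay below every riverine fish, which reached down to 6.34 and 20.04 TPM on the same scale. The scaled hif1a of littoral fish 1, 10.6 TPM, lay within the riverine range of 9.40 to 19.3 TPM. Its scaled hif1an was 2.57 TPM. On this scale it was the lowest of the 13 for none of these genes. Benthic fish reached down to 2.39 TPM of egln1, 10.7 TPM of epas1, 8.42 TPM of hif1a and 2.10 TPM of hif1an.

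Since TPM takes transcript length into account, levels can be set against each other within a fish. In 12 of 13 fish epas1 was above hif1a, benthic fish 2 being the exception, and in 12 of 13 fish it was above vhl. The order of hif1a and vhl was not fixed: hif1a was the higher in 1 of 4 riverine, 2 of 4 littoral and 4 of 5 benthic fish. Both hydroxylases, egln1 and hif1an, lay below hif1a, epas1 and vhl in all 13 fish, and egln1 exceeded hif1an in 6 of them. Summed alpha subunit transcript (hif1a plus epas1) ran from 31.3 to 50.8 TPM in riverine fish, from 14.4 to 54.4 TPM in littoral fish and from 20.2 to 33.8 TPM in benthic fish, which overlapped. The sum holds only the alpha genes found by symbol. The RefSeq genes of this species also include hif1al, which had no entry under that symbol here.

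The rank of a gene among the 29676 genes of its own library was read as a further description, since it is free of the library's scale but moves with how many genes a library detects. In the riverine fish egln1 stood at the 84.3 to 85.6 percentile, above the 74.5 to 80.7 of littoral and the 70.9 to 80.3 of benthic fish, so that on this measure riverine fish overlapped with neither lake population. By rank, 5.45% of all genes tested were lower in littoral fish without overlap and 7.89% in benthic fish. For epas1 the ranges were 93.0 to 95.3 in riverine, 88.3 to 95.03 in littoral and 89.8 to 92.4 in benthic fish, and for vhl 89.7 to 92.5, 87.2 to 91.8 and 82.3 to 89.6, again without overlap between riverine and benthic fish. The ranks of hif1a, from 87.3 to 91.4, and of hif1an, from 71.1 to 88.3, overlapped among all populations.

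Riverine fish were first set against benthic fish, the ecomorph of deep and poorly oxygenated water. For egln1, epas1 and vhl, 3 of the 5 genes, no benthic fish overlapped any riverine fish and the benthic level was the lower. Of all 21147 genes tested, 2.52% were lower in benthic fish without overlap and 16.7% did not overlap in either direction. The log2 fold change, benthic over riverine on the log2(TPM + 0.1) scale, was -0.84 (SE 0.33) for vhl, -0.81 (SE 0.39) for epas1 and -0.60 (SE 0.31) for egln1. By limma with Benjamini-Hochberg adjustment over all genes tested, none of the 5 members passed an adjusted p of 0.05, against 11.2% of all genes and 1.49% called lower in benthic fish. The adjusted p-values from limma were 0.102 for vhl, 0.167 for epas1 and 0.191 for egln1, and 1 member, vhl, had an unadjusted p under 0.05, as did 32.8% of all genes. None met the thresholds that the study's methods set for a differentially expressed gene, which add a log2 fold change of 1.5 and a level of 10 TPM in some fish (2.93% of all genes). They were applied here to limma, whereas the study used sleuth and states other cut-offs elsewhere.

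The exact two-sided permutation test on each gene's mean log2 level gave p = 0.0079 for egln1, the smallest that 4 fish against 5 allow, and 0.0159 for both epas1 and vhl. Adjusted over the 15 tests of 5 genes in 3 comparisons, each of these exact p-values became 0.0794. For hif1an the log2 fold change was -0.62 (SE 0.43), with a 95% interval from -1.55 to 0.30 and an exact permutation p of 0.167. For hif1a it was 0.13 (SE 0.30), with an interval from -0.52 to 0.77 and an exact permutation p of 0.587.

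These comparisons depend on how libraries are brought to a common scale. The median log2 fold change over all genes tested was 0.62 towards benthic fish, and 76.2% of genes lay above 0, so a gene with unchanged TPM lay low among all genes. Set against that median, every member was lower in benthic fish: by -1.45 for vhl, -1.42 for epas1, -1.24 for hif1an, -1.21 for egln1 and -0.49 for hif1a on the log2 scale. In the order of all genes by fold change, vhl stood at the 7.10th percentile, epas1 at the 7.42nd, hif1an at the 9.49th and egln1 at the 9.90th, while hif1a stood at the 28.7th. After scaling by the median of ratios, which brought the all-gene median to 0.14, limma called 3 of the 5 members lower in benthic fish, against 9.98% of all genes called in either direction.

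On that scale the log2 fold changes were -1.43 (SE 0.29, limma adjusted p 0.0134) for vhl, -1.18 (SE 0.25, 0.0148) for egln1 and -1.40 (SE 0.35, 0.0283) for epas1. Scaled levels of egln1 ran from 6.34 to 8.66 TPM in riverine fish and from 2.39 to 4.23 TPM in benthic fish, a wider gap than in the deposited values. For epas1 the scaled ranges were 20.04 to 48.8 and 10.7 to 17.4 TPM. Scaled vhl ran from 12.2 to 24.9 TPM in riverine and from 5.04 to 10.4 TPM in benthic fish. On this scale 7.61% of all genes were lower in benthic fish without overlap. The scaled fold change of hif1a turned negative, at -0.47 (SE 0.24, limma adjusted p 0.212), so its direction rested on the scaling.

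**Figure D2:**
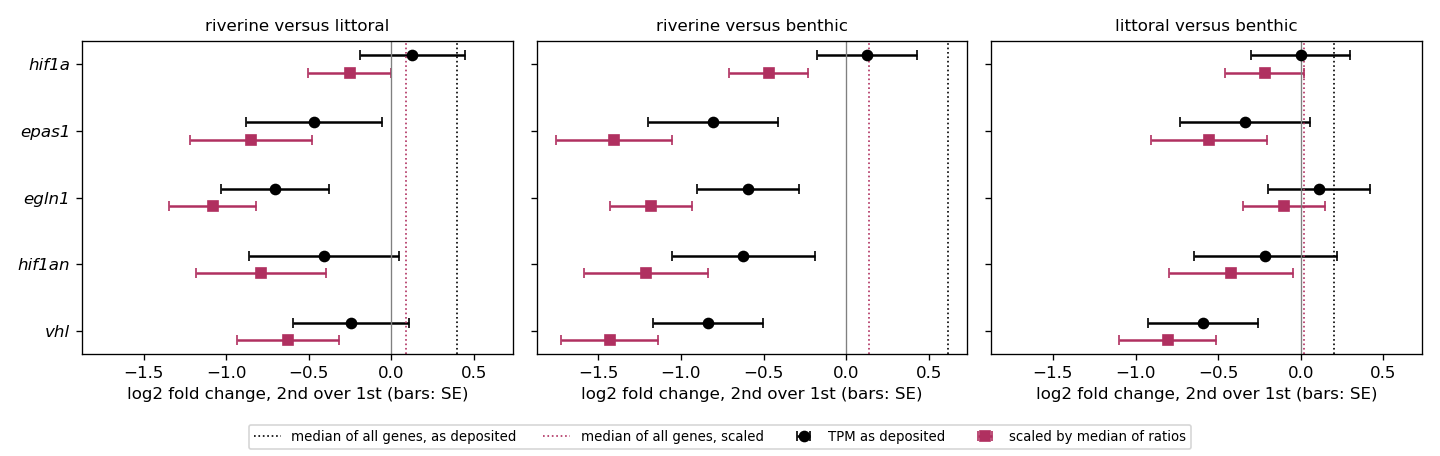
Log2 fold change (horizontal axis, second population over first, bars: SE) of the 5 genes in the 3 comparisons, from TPM as deposited (black circles) and after scaling by the median of ratios (red squares). Dotted lines mark the median of all genes on each scale. In the comparison of riverine with benthic fish the deposited all-gene median lies at 0.62 and each member lies left of it.

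Library and cell type measures were set beside these levels. Between 22938 and 24012 genes had a TPM above 0 in benthic fish, against 19921 to 21946 in riverine and 20576 to 22900 in littoral fish. Genes of hepatocytes, the main cell of the labelled tissue, were abundant: the 6 found of 19 marker symbols summed to 18669 to 37930 TPM in every fish. The 5 leukocyte markers found of 12 symbols summed to 9.61 to 241 TPM in benthic fish, 4.70 to 10.2 TPM in riverine fish and 4.94 to 32.0 TPM in littoral fish. The 5 endothelial markers of 12 summed to 13.5 to 42.1, 13.7 to 17.8 and 8.51 to 30.4 TPM in benthic, riverine and littoral fish. The 2 erythroid markers of 12, gata1 and rhag, went opposite ways: gata1 averaged 0.318 ± 0.155, 5.70 ± 4.83 and 1.12 ± 0.922 TPM and rhag 8.003 ± 5.22, 0.577 ± 0.256 and 0.493 ± 0.524 TPM in the same order. Their sums of 1.843 to 13.8, 1.54 to 12.6 and 0.826 to 2.44 TPM overlapped between benthic and riverine fish. As the 2 went opposite ways, the sum does not measure erythroid content. The symbols klf1, epor and tal1 were listed but matched no entry. The study reports higher transcripts of Eklf (klf1), EpoR, Tal1 and hemoglobin subunits in benthic than in littoral livers. The only exocrine pancreas marker of 10, cpb1, ran from 134 to 663 TPM in benthic, 156 to 2068 TPM in riverine and 443 to 1620 TPM in littoral fish. None of the 8 muscle marker symbols matched an entry, so the muscle content of the samples could not be assessed. No marker found was at 0 throughout a population. The part of cell make-up, run or library content in the levels of the 5 genes was not tested, and in whole liver fewer cells of a type and less RNA per cell cannot be told apart.

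A ratio of a pair of genes within a fish does not move with the scale of its library. The ratio of epas1 to hif1a TPM, added after the levels had been seen, was 2.20, 2.13, 2.53 and 2.90 in riverine fish, 1.03, 1.35, 2.15 and 2.18 in littoral fish, and 1.66, 0.978, 1.16, 1.64 and 1.05 in benthic fish. All riverine ratios lay above all benthic ratios, and the littoral fish fell into a low pair and a pair at the riverine edge. How often ratios of other gene pairs separate these populations was not computed. The transcript of epas1 has 8697 bases and those of hif1a 3657 and 3661. The part of transcript length or run in the ratio was not tested. The geometric mean of the ratio was 2.42 in riverine and 1.26 in benthic fish, a log2 difference of -0.94. The exact permutation p was 0.0079, which became 0.119 when adjusted over the 15 ratio tests. Leaving out each fish in turn kept the log2 difference between -1.04 and -0.85. For riverine against littoral fish the log2 difference was -0.60 (exact permutation p = 0.0857, adjusted 0.571) and for littoral against benthic fish -0.34 (exact permutation p = 0.294), with overlap in both. The ratios of egln1, of vhl and of hif1an to the summed alpha subunits, and of hif1an to egln1, overlapped in every comparison.

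**Figure D3:**
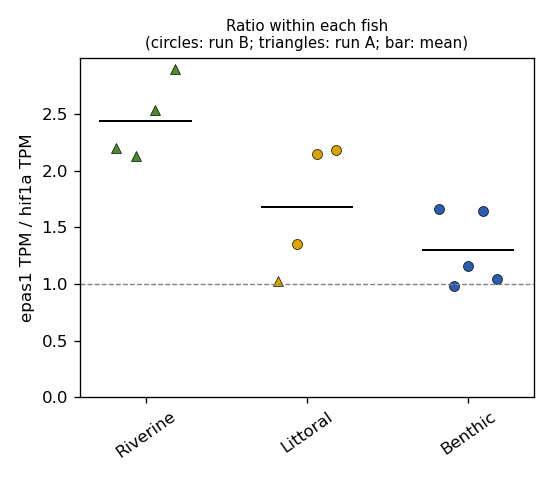
Ratio of epas1 TPM to hif1a TPM in each fish (vertical axis, from 0), by population, with the mean as a bar and equality dashed. Circles are run B and triangles run A. Riverine fish lie between 2.13 and 2.90 and benthic fish between 0.978 and 1.66.

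Riverine and littoral fish were compared next. None of the 5 members was called by limma, against 1.46% of all genes, none met the thresholds of the study, against 0.761%, and none separated the populations, against 9.63%. An unadjusted p under 0.05 was found for 1 member, egln1, and for 18.9% of all genes. The nearest was egln1, with a log2 fold change of -0.71 (SE 0.32, limma adjusted p 0.258) and an exact permutation p of 0.0571, where 4 fish against 4 allow 0.0286 at the least. After scaling by the median of ratios the littoral range of egln1, 2.82 to 4.40 TPM, no longer reached the riverine range, which held for 4.78% of all genes, and its log2 fold change of -1.08 (SE 0.26) had a limma adjusted p of 0.0520, so that no member was called there either, against 2.02% of all genes. The other log2 fold changes were -0.47 (SE 0.41) for epas1, -0.41 (SE 0.46) for hif1an, -0.25 (SE 0.35) for vhl and 0.13 (SE 0.32) for hif1a. The last of these was -0.25 after scaling. Littoral fish 1 weighed on the rest: without it the value was -0.41 for egln1, -0.02 for epas1, 0.0048 for hif1an and 0.04 for vhl. The median over all genes was 0.40 with all fish and 0.57 without littoral fish 1, and each of these values lay below it.

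Littoral and benthic fish share the lake and, for 3 of the 4 littoral fish, the sequencing run, and differ in depth. None of the 5 genes was called by limma, against 0.359% of all genes, and none met the thresholds of the study, against 0.222%. None had an unadjusted p under 0.05, against 10.9%, and each overlapped, where 4.01% of all genes did not. Scaling by the median of ratios called none of them either, against 0.426% of all genes. The widest difference was that of vhl, at -0.59 on the log2 scale with a 95% interval from -1.30 to 0.12 and a limma adjusted p of 0.543. For epas1 the difference was -0.34 (interval -1.18 to 0.50), for hif1an -0.21 (-1.14 to 0.71) and for egln1 0.11 (-0.55 to 0.77). The levels of hif1a were -0.00037 apart (-0.65 to 0.65). These intervals leave room for differences of either sign, vhl included. Within run B alone, which leaves out littoral fish 1, the differences were -0.88 for vhl, -0.79 for epas1, -0.63 for hif1an, -0.24 for hif1a and -0.19 for egln1, with limma adjusted p-values of 0.349 or more.

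Transcripts of hif1a were listed in 2 forms, of 3657 and 3661 bases, and the remaining genes in 1 form each. The longer form made up 30.6, 36.7, 8.64 and 5.32e-07% of hif1a TPM in riverine fish 1 to 4, 44.0, 1.41e-08, 7.19 and 26.9% in littoral fish 1 to 4, and 29.0, 7.34, 25.7, 16.6 and 0.128% in benthic fish 1 to 5. Each population thus held 1 fish with almost none of the longer form and another with 29.0% or more, and all 3 populations overlapped. The split between forms of almost equal length is an estimate by the quantification program, whose error was not used here, while the sum over both is what the comparisons rest on.

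**Figure D4:**
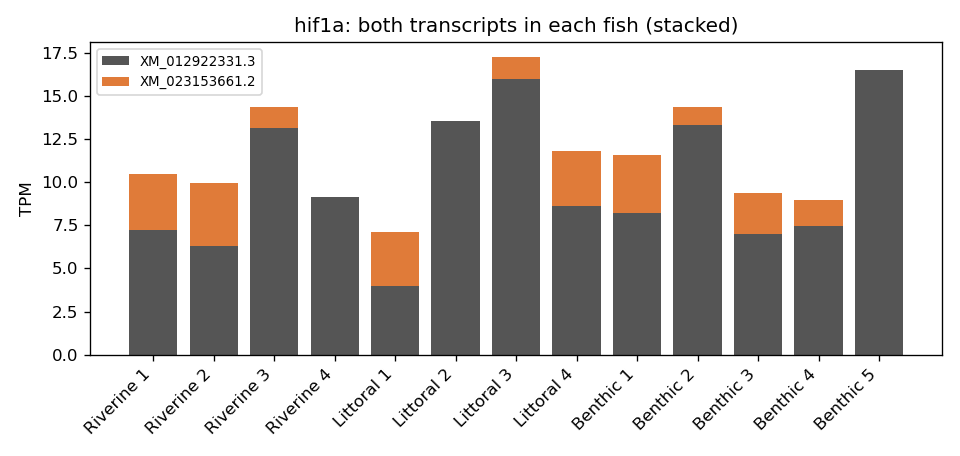
TPM of the 2 transcripts of hif1a (vertical axis, from 0), stacked, in each of the 13 livers. The longer form (orange) is close to absent in riverine fish 4, littoral fish 2 and benthic fish 5 and reaches 44.0% in littoral fish 1.

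The target genes of the HIFs did not move as a block. Of 57 target symbols listed, 13 were in the table and all 13 were tested. In littoral against riverine fish 2 of them were called lower and none higher (1.46% of all genes called in either direction), in benthic against riverine fish 1 was called lower and none higher (11.2%), and between the lake ecomorphs none was called (0.359%). After scaling by the median of ratios ddit4, mb and bnip3, 3 of the 13, were called lower in littoral and in benthic fish (2.02% and 9.98% of all genes called). The median log2 fold change of the 13 was -0.36 beside 0.40 over all genes for littoral fish, 0.05 beside 0.62 for benthic against riverine fish, and 0.45 beside 0.20 for benthic against littoral fish.

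The target called against both lake populations was ddit4, also known as REDD1, which restrains mTORC1 signalling under low oxygen and other stresses. It stood at 1586, 964, 739 and 364 TPM in riverine fish 1 to 4, at 52.1, 159, 73.4 and 42.8 TPM in littoral fish, and at 59.8, 49.2, 84.3, 142 and 291 TPM in benthic fish. Every lake fish lay below every riverine fish. Without overlap, 1.73% of all genes tested were lower in littoral and 2.52% in benthic fish. The log2 fold change of ddit4 was -3.48 (SE 0.58, limma adjusted p 0.0113) in littoral and -2.99 (SE 0.55, limma adjusted p 0.0092) in benthic fish. With sequencing run in the model, the limma adjusted p rose to 0.0506 and 0.134, and over all alternatives it ran from 0.0046 to 0.0536 and from 0.0028 to 0.134.

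Myoglobin, the oxygen-binding protein encoded by mb, was called in littoral against riverine fish. Its transcript was measured at 42.9, 75.1, 119 and 40.8 TPM in riverine fish, 8.21, 6.76, 10.04 and 9.61 TPM in littoral fish, and 29.9, 21.9, 41.1, 13.4 and 62.4 TPM in benthic fish. Littoral fish were below all fish of both other populations. Of all genes tested, 1.73% were lower in littoral than in riverine fish without overlap. Against benthic fish, 3.07% were lower in littoral fish without overlap. The log2 fold change of mb in littoral over riverine fish was -2.87 (SE 0.45, limma adjusted p 0.0082). Its call held in all alternatives but the 1 with run in the model (0.0573). In benthic against riverine fish mb differed by -1.09 (SE 0.43, limma adjusted p 0.0985), or -1.69 (limma adjusted p 0.0299) after scaling by the median of ratios, and benthic against littoral fish by 1.78 (SE 0.43, limma adjusted p 0.101).

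By the naming rule the next targets were angptl4, an inhibitor of lipoprotein lipase, and hk1, a hexokinase that opens glycolysis. Neither was called in the deposited TPM: in benthic over riverine fish angptl4 stood at 2.40 (SE 0.96, limma adjusted p 0.105) and hk1 at 1.64 (SE 0.82, limma adjusted p 0.177). With run in the model the values were -1.91 (limma adjusted p 0.581) for angptl4 and 5.78 (limma adjusted p 0.0129) for hk1. That fit called 2.19% of all genes between riverine and benthic fish. In riverine and benthic fish angptl4 ran from 0.435 to 6.21 and from 2.06 to 12.8 TPM. Levels of hk1 were low there, at 0.166 to 0.503 and 0.516 to 3.76 TPM. In littoral fish 1 to 4 angptl4 stood at 0.0385, 1.56, 5.21 and 2.25 TPM and hk1 at 10.6, 0.761, 0.464 and 0.351 TPM. Littoral fish 1 thus had the lowest angptl4 and the highest hk1 of all fish. The run effect in that model is estimated from this fish against the other littoral fish alone. After scaling by the median of ratios angptl4 stood at 1.838 (limma adjusted p 0.231) and hk1 at 1.153 (limma adjusted p 0.408). A further 3 targets were picked after their values had been seen. The mitophagy receptor gene bnip3 ran from 183 to 433 TPM in riverine fish, from 21.9 to 130.0 TPM in littoral fish and from 58.5 to 159 TPM in benthic fish, and riverine fish overlapped with neither. Of all genes tested, 1.73% were lower in littoral fish and 2.52% in benthic fish without overlap. The log2 fold changes of bnip3 were -2.03 (limma adjusted p 0.0667) in littoral and -1.59 (limma adjusted p 0.0543) in benthic fish, short of the threshold. After scaling they were -2.41 (limma adjusted p 0.0457) and -2.19 (limma adjusted p 0.0252). The classic targets vegfa and epo overlapped between all populations, with 4.24 to 18.1 TPM of vegfa and 0.0861 to 3.28 TPM of epo over the riverine fish, and 10.2 to 16.1 and 0.407 to 2.58 TPM over the benthic fish.

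**Figure D5:**
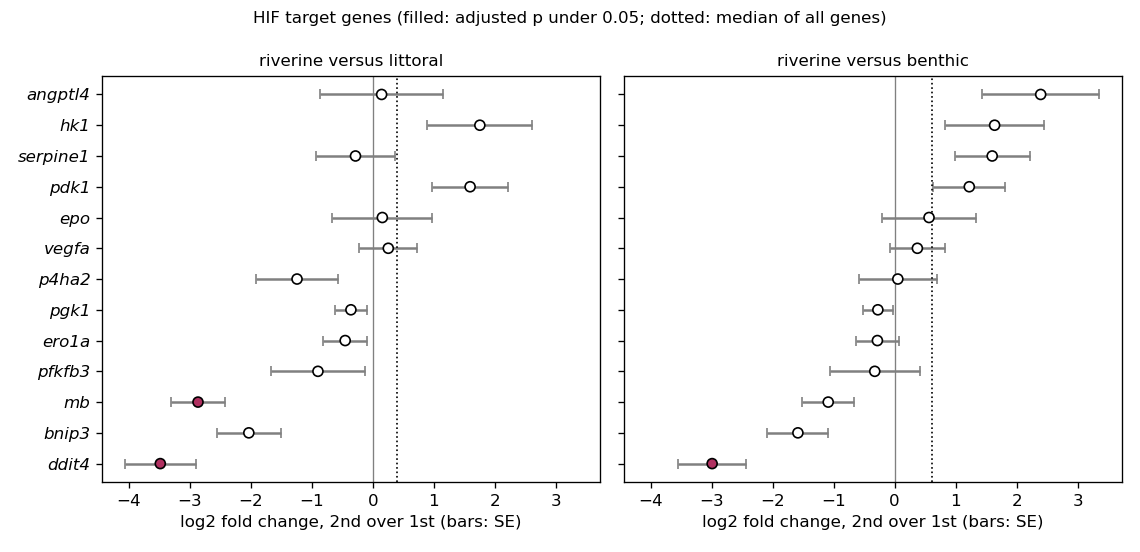
Log2 fold change (horizontal axis, second population over first, bars: SE) of the 13 HIF target genes found in the table, for littoral (left) and benthic fish (right) over riverine fish. Filled points passed an adjusted p of 0.05 in limma and the dotted line is the median of all genes. Only ddit4 and mb are filled on the left and only ddit4 on the right.

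Partners of the pathway showed no called change in the deposited TPM. Of 39 symbols for subunits of the VHL ubiquitin ligase and for HIF cofactors, 16 were in the table and tested, and none was called in any comparison. The shares of all genes called were 1.46% in riverine against littoral, 11.2% in riverine against benthic and 0.359% in littoral against benthic fish. In the deposited TPM the largest differences between riverine and benthic fish were those of ncoa3 (1.14, limma adjusted p 0.187), cul2 (1.03, 0.0507), ncoa1 (0.96, 0.185) and ncoa2 (0.93, 0.161), 3 coactivator genes and the cullin scaffold on which VHL sits. The median over all genes was 0.62 in this comparison. After scaling by the median of ratios these genes stood at 0.76, 0.46, 0.47 and 0.39 in the same order (limma adjusted p 0.293 to 0.397). On that scale the largest difference was that of cited1, at -0.82 (limma adjusted p 0.217). Deposited levels of cul2 ran from 0.861 to 2.46 TPM in riverine fish, 3.42 to 4.40 TPM in littoral fish and 2.57 to 4.17 TPM in benthic fish, so that riverine fish overlapped with neither lake population. Of all genes tested, 7.9% were higher in littoral fish and 14.2% in benthic fish without overlap. Levels of ncoa3 were near the 0.1 TPM added before taking logarithms, at 0.114 ± 0.0473 TPM in riverine and 0.414 ± 0.273 TPM in benthic fish (SD). Among other factors of the same protein family (bHLH-PAS), 3 of 27 symbols were found and 2 tested, npas1 at 1.26 (limma adjusted p 0.0834) and npas3 at 1.12 (0.112), neither called. Levels of npas3 were lower still, at 0.0418 ± 0.0262 TPM in riverine and 0.235 ± 0.154 TPM in benthic fish (SD). Of 29 symbols for other oxygen-dependent hydroxylases, demethylases and globins 7 were found and 5 tested, and none was called, beside the same shares of all genes. In benthic over riverine fish kdm6a stood at 1.28 (limma adjusted p 0.0798), p4ha3 at 1.28 (0.189), plod1 at -0.51 (0.410) and kdm3b at 0.08 (0.916). After scaling by the median of ratios plod1, a collagen lysyl hydroxylase, was called lower in benthic fish (-1.06, limma adjusted p 0.0389) and in littoral fish (-1.77, limma adjusted p 0.0141), and after quantile normalization in benthic fish (-1.34, limma adjusted p 0.0120). In the same order, 9.98%, 2.02% and 6.2% of all genes were called in either direction.

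Genes with the most similar profile over the 13 livers were looked up for epas1, the more abundant alpha subunit, and for egln1, the only egln gene found, among 6074 named genes that averaged 1 TPM or more. For epas1 they included polr3e (Pearson's r 0.92, Spearman's rho 0.90) and rev3l (0.92, 0.86). For egln1 they were ccdc126 (0.96, 0.90), lg20h1orf174 (0.93, 0.86) and ppara (0.91, 0.82), the last encoding a nuclear receptor for fatty acids. Means of ppara were 67.1 ± 30.6 TPM in riverine, 28.8 ± 17.8 TPM in littoral and 39.6 ± 11.1 TPM in benthic fish. These correlations are descriptions over livers that share population, run and scale, and carry no test.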

How the data were processed

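Liver RNA of 13 wild fish was sequenced by the study. Per the labels and the study's methods, reads were trimmed with Trim Galore, the longer reads of 1 run were cut to the length of the other, and kallisto assigned them to Maylandia zebra transcripts. The labels name ribosomal RNA depletion and the methods poly(A) selection. The authors deposited TPM per transcript, scaled within each library and not between libraries. Read counts and the depth of each fish were not used, so no counting interval is given. TPM were summed by gene symbol. The 21147 genes averaging 0.1 TPM or more were tested as log2(TPM + 0.1) with limma 3.58.1 in R 4.3.3 (all 3 populations in 1 fit, moderated with a trend, two-sided, Benjamini-Hochberg over all genes, called at an adjusted p under 0.05). The fit was checked on simulated data that held no shift between libraries and no run effect, so the check covers neither. Single genes were tested by exact two-sided permutation. Alternatives were other pseudocounts, filters and scalings, run as a covariate, a robust fit, pairs alone, transcripts, 1 run alone, and leaving out each fish. Described genes were the members, up to 4 per list (those called in most comparisons, then by fold change between riverine and benthic fish) and the 3 most correlated with epas1 and egln1, of which 1 is not reported here. Members and lists were chosen with earlier results of these data known. Symbols of the RefSeq gene table for assembly fAstCal1.2 were compared with the rule (10 matched), without coordinates. Methylation data were not analysed here, since no annotation of their build was at hand.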

Additional observations from a re-analysis of the deposited data

Results flagged for a closer look

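The level of hif1an in littoral fish 1, 1.71 TPM, lay far from the 5.36 to 6.04 TPM of the other 3 littoral fish. In the deposited TPM the gap to the nearest fish was 0.843 of the range of the 4, above Dixon's 95% critical value for 4 samples. Of 15 groups examined (5 genes in 3 populations) this was the only such case. Chance gives about 1 in 20 for each single group, so 1 case among 15 is not unusual. The groups also share their fish from gene to gene. In the deposited TPM the same fish had the lowest epas1, hif1a and egln1 of the 13, and it was the only lake fish in run A. After scaling by the median of ratios its hif1an was 2.57 TPM, beside 4.22 to 5.67 TPM in the other littoral fish. Dixon's ratio was not taken on that scale, where the fish was not the lowest for any of these genes. The part of the run in these levels was not tested.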

How the results depend on the processing

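Between riverine and benthic fish the number of members called was 0 in the deposited TPM, 3 after scaling by the median of ratios (epas1, egln1 and vhl; 9.98% of all genes called), 2 after quantile normalization (egln1, limma adjusted p 0.0342, and vhl, 0.0402; 6.2% of all genes) and 1 with run as a covariate (epas1, -2.62, limma adjusted p 0.0245; 2.19% of all genes). It was 0 under every other alternative run, and 0 in the other comparisons under all of them. With run as a covariate, the run effect is estimated from littoral fish 1 against the other 3 littoral fish alone. That fit gave larger differences: in riverine against littoral fish -1.60 for egln1 (limma adjusted p 0.0505), -1.83 for epas1 (0.0527), -1.65 for hif1an and -1.11 for vhl, and in riverine against benthic fish -1.79 for egln1, -1.99 for vhl and -2.28 for hif1an. The direction of hif1a turned in riverine against littoral fish to -0.25 (median of ratios), -0.035 (quantile) and -0.60 (run), and in riverine against benthic fish to -0.47, -0.13 and -0.85. For littoral against benthic fish egln1 turned to -0.10 (median of ratios), -0.12 (quantile) and -0.19 (run, or run B alone), and hif1a to 0.087 with transcripts. With run as a covariate angptl4 turned to -1.91, ncoa1 to -0.57, ncoa2 to -0.22, p4ha3 to -0.27, kdm6a to -0.13 and kdm3b to -1.86. Further turns were kdm3b at -0.49 (median of ratios), -0.62 (quantile) and -0.29 (transcripts) and ncoa2 at -0.57 (transcripts). The median over all genes also moved with these settings. In riverine against benthic fish it was 0.62 as deposited, 0.14 (median of ratios), 0.0059 (quantile) and -0.11 (run). In riverine against littoral fish it was 0.40, 0.087, 0.029 and -0.16 in the same order. The cause of these turns was not tested.

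Leaving out each fish in turn gave, for riverine against littoral fish, -0.053 to 0.37 for hif1a, -0.64 to 0.0048 for hif1an and -0.52 to 0.04 for vhl, the highest of the last 2 without littoral fish 1. Without that fish the median over all genes in this comparison was 0.57. For littoral against benthic fish it gave -0.19 to 0.31 for egln1, the lowest without littoral fish 1, and -0.24 to 0.18 for hif1a. For riverine against benthic fish kdm3b ran from -0.057 to 0.22. Without riverine fish 2, cul2 (limma adjusted p 0.0199), npas1 (0.0294) and kdm6a (0.0237) were called between these populations, and without littoral fish 1 angptl4 (0.0425) and cul2 (0.0441). Of all genes, 16.5% were called between riverine and benthic fish without riverine fish 2. Without littoral fish 1 the share was 15.3%, against 11.2% with all fish. Over all 24 alternatives of that comparison cul2 was called in 6. Fitted as a pair alone, ddit4 had a limma adjusted p of 0.0536 in littoral against riverine fish.

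No paired analysis was possible because fish of different populations are separate animals and their numbers only name them. Tests of CG sites at the members were not run, since they need an annotation of the files' build. With 4 or 5 fish a population, exact tests cannot go below 0.0286 (4 against 4) or 0.0079 (4 against 5), and without read counts the precision of a single level is unknown.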
